A study of Mus musculus with 6 samples.

Results

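Transcripts of 10 amino acid transporters were read in all 6 mRNA libraries of the series, by their symbols in a table of 20950 entries, and each of the 10 was found under its own name. C2C12, a line of mouse myoblasts that fuse into myotubes when serum is withdrawn, was either growing in DMEM with 10% FBS (fetal bovine serum) or differentiating in DMEM with 2% HS (horse serum) or 0.2% FBS. Exosomes isolated from FBS with commercial kits, in about the amount present in 10% FBS, were added in each differentiation medium. A single library was made for 10% FBS, for 2% HS, for 2% HS + exosome and for 0.2% FBS. Only 0.2% FBS + exosome was sequenced in 2 libraries, called replicates 1 and 2. All libraries come from the same line with no genetic change, and no source says whether replicates 1 and 2 came from separate cultures, so p-values may measure technical spread only. Levels are given as FPKM, reads scaled by transcript length and by mapped reads, which permits comparison between genes. Changes were taken between values of log2(FPKM + 1), on which the change of a low gene is understated. The read depth, estimated from the spacing of low FPKM values, lay between 33600000 and 39400000 reads per library.

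Amino acids cross the plasma membrane through carriers of several families. The 4F2 heavy chain, encoded by Slc3a2, carries no substrate itself but brings its light chains of the SLC7 family to the cell surface through a disulfide bond. The other members here are the cationic carriers of the SLC7 family and sodium-dependent carriers of small neutral amino acids. When amino acids are short, the kinase GCN2 phosphorylates eIF2alpha, translation of the transcription factor ATF4 rises, and ATF4 induces many transporters together with enzymes of amino acid synthesis through sites called CARE (C/EBP-ATF response elements). In muscle, leucine uptake through the pair of SLC7A5 and SLC3A2 feeds mTORC1 and protein synthesis.

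In 0.2% FBS, transcripts of 8 of the 10 transporters were lower in each library with exosomes than without, and the same 8 were higher with exosomes in 2% HS (7, without Slc7a3, when values below 1 FPKM are raised to 1). Among the 10726 genes whose mean reached 1 FPKM, 12.1% had this combination. Slc7a3 lies below that mean, and of the 9 transporters above it 7 had the combination. The 8 were Slc3a2, Slc7a5, Slc7a11, Slc7a1, Slc7a3, Slc1a4, Slc1a5 and Slc6a9, and the exceptions were Slc7a6 and Slc38a2. Taken medium by medium, 27.5% of all genes were below the control in both exosome libraries of 0.2% FBS and 41.3% were higher with exosomes in 2% HS. The median log2 change of the 10 was −0.42 in 0.2% FBS (−0.34 in replicate 1 and −0.49 in replicate 2), beside 0.14 over all genes, and 0.77 in 2% HS, beside −0.04 over all genes. Equalising the 75th percentile of the libraries moved the median of all genes in 0.2% FBS from 0.14 to −0.0024 and that of the 10 to −0.57. The 2 comparisons share no library.

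**Figure D1:**
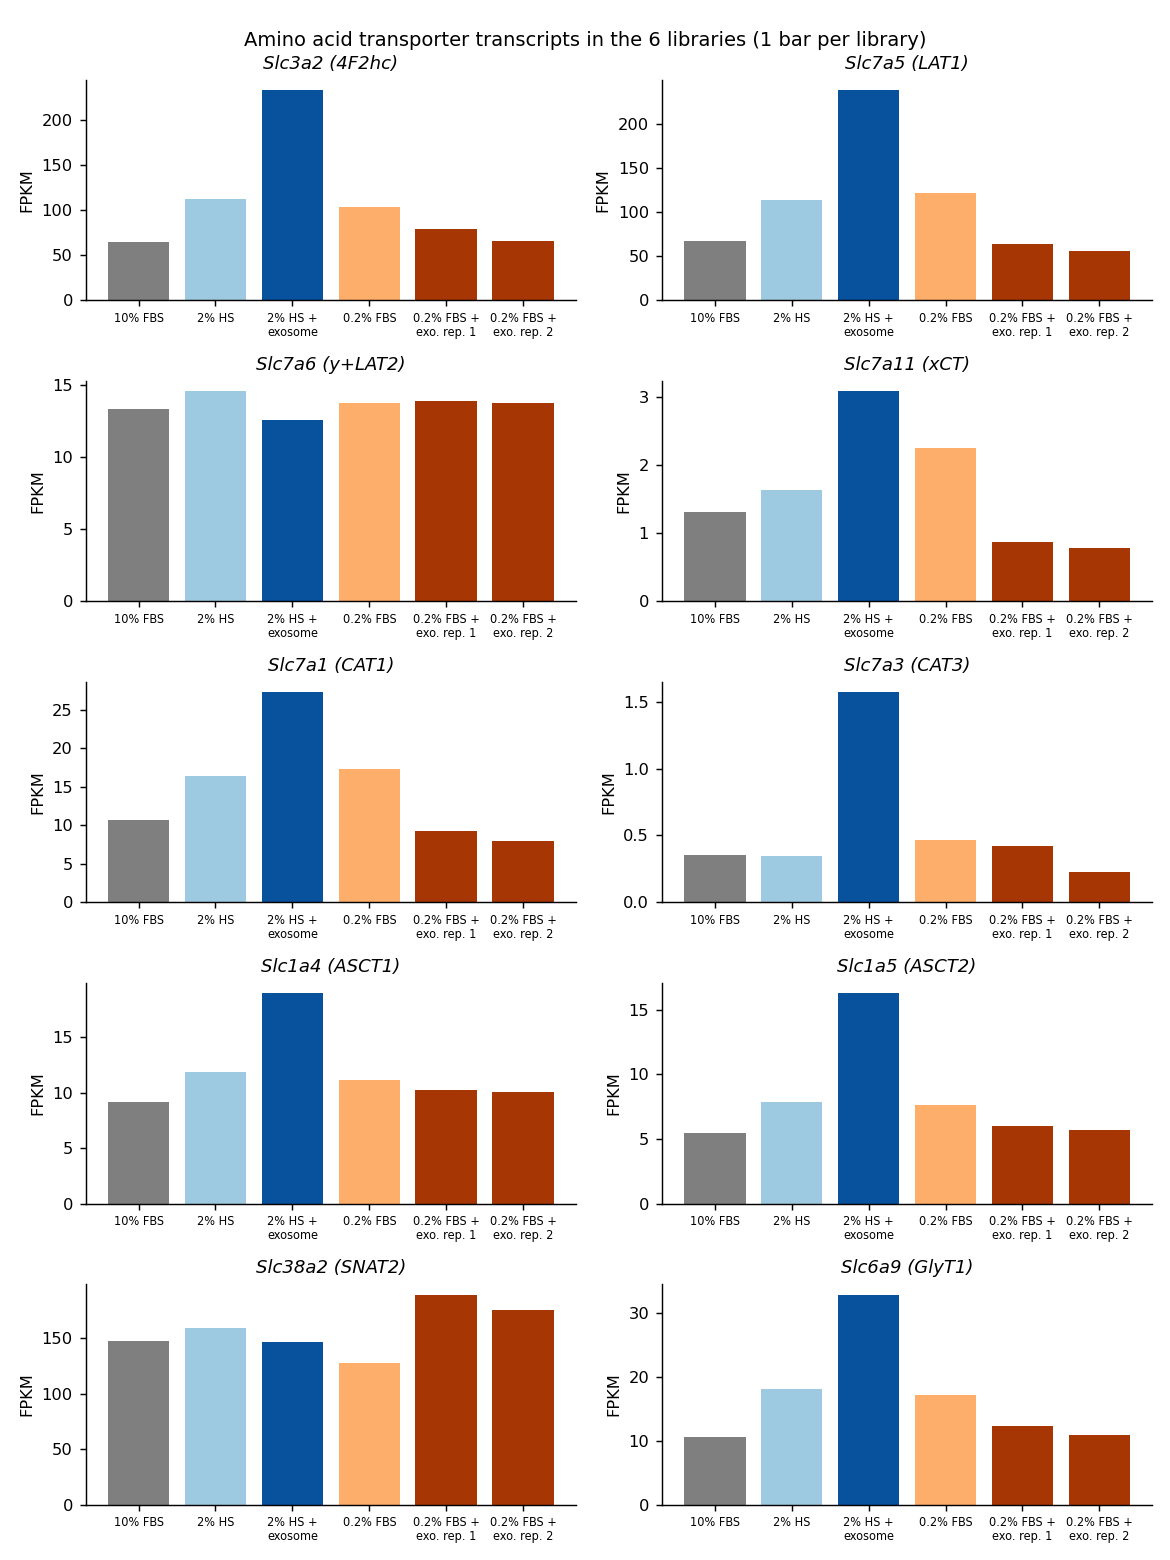
Level of each transporter transcript in FPKM (vertical axes from 0, each with its own range) in the 6 libraries, 1 bar per library. For 8 of the 10 genes the tallest bar is 2% HS + exosome, while Slc7a6 is nearly level and Slc38a2 is highest in replicate 1 of 0.2% FBS + exosome.

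The most abundant transcripts were Slc38a2, Slc7a5 and Slc3a2, which together made up between 83.5% and 86.2% of the summed FPKM of the 10 transporters in every library. Slc38a2 was the highest of the 10 in 5 libraries, and in 2% HS + exosome it lay below Slc7a5 and Slc3a2. Slc7a5 and Slc3a2 lay close together and changed places between libraries, the ratio of Slc7a5 to Slc3a2 being between 0.806 and 1.17. Slc7a6, Slc7a1, Slc6a9, Slc1a4 and Slc1a5 formed a middle group between 5.42 and 32.8 FPKM, in an order that differed between libraries. Slc7a11 ranked 9 and Slc7a3 ranked 10 in all 6 libraries.

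Slc3a2, the heavy chain, lies on chromosome 19 from 8706882 to 8723369 on the minus strand (GENCODE vM21, mm10). It was at 64.4 FPKM in 10% FBS, 112 FPKM in 2% HS, 232 FPKM in 2% HS + exosome, 104 FPKM in 0.2% FBS, and 79.0 (replicate 1) and 66.1 FPKM (replicate 2) with exosomes in 0.2% FBS. It was therefore highest in 2% HS + exosome and lowest in growing cells. The log2 change with exosomes in 2% HS was 1.04, 1 library against 1. In 0.2% FBS it was −0.52 (SD 0.18, n = 2), which did not pass in a limma fit over all genes with 1 mean per condition (SE 0.21, adjusted p = 0.132). Here and below, the SD of a change is the spread of replicates 1 and 2 only. Both are set against the same control library, whose own variation the SD leaves out.

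Slc7a5 encodes LAT1, the light chain for leucine and other large neutral amino acids, and lies on chromosome 8 from 121881150 to 121907694 on the minus strand. Its levels were 67.6 FPKM in 10% FBS, 113 FPKM in 2% HS, 238 FPKM in 2% HS + exosome, 122 FPKM in 0.2% FBS, and 63.7 and 55.8 FPKM with exosomes in 0.2% FBS. Both exosome libraries in 0.2% FBS lay below growing cells, and the library of 2% HS + exosome stood above all others. Its highest FPKM was 4.26 times its lowest, and its range of log2(FPKM + 1), 2.07, was the widest of the 10. Its log2 change with exosomes was −1.02 in 0.2% FBS (SD 0.13, n = 2) and 1.06 in 2% HS. In the limma fit with 1 mean per condition it fell in 0.2% FBS (SE 0.20, adjusted p = 0.0199).

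Slc7a11 encodes xCT, the light chain that imports cystine in exchange for glutamate and thereby supplies glutathione synthesis. It lies on chromosome 3 from 49892526 to 50443614 on the minus strand. It was at 1.31 FPKM in 10% FBS, 1.63 FPKM in 2% HS, 3.08 FPKM in 2% HS + exosome, 2.25 FPKM in 0.2% FBS, and 0.869 (replicate 1) and 0.779 FPKM (replicate 2) with exosomes in 0.2% FBS. In 0.2% FBS the exosome libraries stood at 0.386 and 0.346 of the control, the deepest relative fall of the 10 in replicate 1 and in replicate 2, and in 2% HS the exosome library stood at 1.89 times the control. The longest annotated coding transcript, 9223 bases, would place at most 743 reads behind the value in 0.2% FBS and 276 and 236 reads behind those with exosomes. The log2 change in 0.2% FBS was −0.83 (SD 0.05, n = 2) and passed in the same limma fit (SE 0.19, adjusted p = 0.0276). Both exosome libraries lay below 1 FPKM, so the gene reached the mean of 1 FPKM required for that fit only through the other libraries. With a pseudocount of 0.1 FPKM in place of 1 FPKM it was −1.35.

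The promoter of Slc7a11 is shown because it held 2 matches to the CARE letters TGATGNAA, which 23 of 32851 promoter windows of 300 bases (0.07%) did. The sequence is from RefSeq (GRCm38.p6), minus strand, the 250 bases before the transcript start at chr3:50443614-50443863, with both matches in capitals. They lie at bases −66 to −59 and −47 to −40 from the start and read in opposite directions.
Slc7a11: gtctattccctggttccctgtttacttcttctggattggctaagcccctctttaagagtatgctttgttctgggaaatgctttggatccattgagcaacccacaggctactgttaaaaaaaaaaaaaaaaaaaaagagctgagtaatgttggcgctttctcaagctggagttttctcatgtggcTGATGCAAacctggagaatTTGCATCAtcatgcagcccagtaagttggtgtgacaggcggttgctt

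Both strands of the windows, 250 bases before to 50 after each start, were searched. Windows were found for 7 of the 10 transporters, not for Slc7a5, Slc7a3 and Slc1a5. The only window of Slc3a2 belongs to a transcript start at 8713897, inside the gene, so the annotated gene start at 8723369 was not searched. At least 1 CARE match occurred in 3.97% of all 32851 windows and, since some genes have several, in 4.51% of the 27025 genes with a window, in 2 of the 7 transporters, Slc7a11 and Slc1a4, and in 9 of 28 genes of an amino acid response list described below. Stretches of 30 bases around the match, in capitals, are shown for Slc1a4 (chr11:20332699-20332728) and, as genes of that response, for Asns (chr6:7693214-7693243) and Fgf21 (chr7:45615611-45615640), each on the minus strand of GRCm38.p6. In Slc1a4 and Fgf21, as at the second site of Slc7a11, the match lies on the opposite strand and reads TTGCATCA. A match is a description of letters and no evidence of binding.
Slc1a4: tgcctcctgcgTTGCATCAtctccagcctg
Asns: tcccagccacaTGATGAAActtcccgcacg
Fgf21: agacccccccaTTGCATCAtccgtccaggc

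The ARE letters TGACNNNGC, a core of sites bound by NRF2, occurred in 12.4% of all windows, in 13.99% of genes and in the windows of Slc7a6, Slc7a1, Slc38a2 and Slc6a9. E-boxes CAGCTG or CACCTG, letters recognised by myogenic factors, occurred in 32.9% of all windows, in 35.9% of genes and in the windows of Slc7a6, Slc7a1 and Slc38a2. Neither was found in the windows of Slc3a2, Slc7a11 and Slc1a4, that of Slc3a2 lying inside the gene.

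Slc7a6 encodes y+LAT2, a light chain that exchanges arginine for neutral amino acids, and lies on chromosome 8 from 106168857 to 106198706 on the plus strand. Its levels were 13.3 FPKM in 10% FBS, 14.6 FPKM in 2% HS, 12.6 FPKM in 2% HS + exosome, 13.8 FPKM in 0.2% FBS, and 13.9 and 13.7 FPKM with exosomes in 0.2% FBS. Its highest value was 1.16 times its lowest, the narrowest range of the 10. The log2 change in 0.2% FBS was 0.01 (95% interval −0.35 to 0.36, adjusted p = 0.983, limma). With the 75th percentiles equalised, this change became −0.14.

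Set against their heavy chain, the summed FPKM of the light chains Slc7a5, Slc7a6 and Slc7a11 was 1.28 times that of Slc3a2 in 10% FBS, 1.15 times in 2% HS, 1.09 times in 2% HS + exosome, 1.33 times in 0.2% FBS, and 0.993 and 1.06 times with exosomes in 0.2% FBS. This ratio ran from 0.993 to 1.33, while the highest FPKM of Slc3a2 was 3.61 times its lowest. Slc7a5 held between 79.4% and 93.8% of this sum, its largest share in 2% HS + exosome and its smallest in replicate 2 of 0.2% FBS + exosome. The sum holds members only, so Slc7a7, an SLC7 carrier outside the 10 at between 1.65 and 4.13 FPKM, is left out.

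Slc7a1 encodes CAT1, the general carrier of arginine and lysine, on chromosome 5 from 148327410 to 148399904 on the minus strand. It was at 10.7 FPKM in 10% FBS, 16.4 FPKM in 2% HS, 27.2 FPKM in 2% HS + exosome, 17.3 FPKM in 0.2% FBS, and 9.29 and 7.91 FPKM with exosomes in 0.2% FBS. Like Slc7a5, it was lower in the exosome libraries of 0.2% FBS than in growing cells. It fell in 0.2% FBS by 0.93 on the log2 scale (SD 0.15, n = 2; limma SE 0.17, adjusted p = 0.0163), and the log2 change in 2% HS was 0.70.

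Slc7a3, which encodes the cationic carrier CAT3, lies on chromosome X from 101079210 to 101086020 on the minus strand. It was the least abundant of the 10, at 0.354 FPKM in 10% FBS, 0.347 FPKM in 2% HS, 1.57 FPKM in 2% HS + exosome, 0.469 FPKM in 0.2% FBS, and 0.423 and 0.228 FPKM in the exosome libraries of 0.2% FBS. Only the library of 2% HS + exosome exceeded 1 FPKM, at 4.51 times the control of that medium. With the longest coding transcript of 2750 bases, an estimated 34.1 and 136 reads stand behind the 2% HS values, and 43.8, 37.9 and 19.5 reads behind those of 0.2% FBS. Its mean over the 6 libraries was below 1 FPKM, so it is the 1 member left out of the limma fits with the filter on low values. The log2 change was 0.93 in 2% HS and −0.15 in 0.2% FBS, where the SD over replicates 1 and 2 was 0.15, as large as the change.

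Slc1a4 and Slc1a5 encode ASCT1 and ASCT2, sodium-dependent exchangers of small neutral amino acids, ASCT2 also carrying glutamine. Slc1a4 (chromosome 11, 20302180 to 20332713, minus strand) was at 9.12 FPKM in 10% FBS, 11.9 FPKM in 2% HS, 18.9 FPKM in 2% HS + exosome, 11.1 FPKM in 0.2% FBS, and 10.2 and 10.0 FPKM with exosomes in 0.2% FBS. Slc1a5 (chromosome 7, 16781340 to 16798274, plus strand) was at 5.42, 7.86, 16.2, 7.58, 6.03 and 5.66 FPKM in the same order of libraries. For both genes 2% HS + exosome was the highest library and growing cells the lowest. The log2 change in 2% HS was 0.63 for Slc1a4 and 0.96 for Slc1a5. In 0.2% FBS it was −0.13 for Slc1a4 (SD 0.02, n = 2, adjusted p = 0.629, limma) and −0.33 for Slc1a5 (SD 0.05, n = 2, adjusted p = 0.202).

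Slc6a9, on chromosome 4 from 117834506 to 117875198 on the plus strand, encodes the glycine carrier GlyT1. It was at 10.5 FPKM in 10% FBS, 17.99 FPKM in 2% HS, 32.8 FPKM in 2% HS + exosome, 17.2 FPKM in 0.2% FBS, and 12.3 and 10.8 FPKM with exosomes in 0.2% FBS. These exosome libraries lay between growing cells and the 0.2% FBS control. The log2 change was 0.83 in 2% HS and −0.54 in 0.2% FBS (SD 0.11, n = 2, adjusted p = 0.0652, limma). Its annotated exons share 1429 bases with Ccdc24 on the opposite strand, which was at or below 2.18 FPKM in every library, 511 with Gm17114 and 46 with B4galt2 (up to 17.7 FPKM), both also on the opposite strand. Whether the FPKM computation used strand is not given in the sources used here.

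Slc38a2 encodes SNAT2, the carrier of system A for alanine, serine and glutamine, which is known to respond to amino acid shortage and to hypertonicity. It lies on chromosome 15 from 96687392 to 96699730 on the minus strand. Its levels were 148 FPKM in 10% FBS, 159 FPKM in 2% HS, 146 FPKM in 2% HS + exosome, 127 FPKM in 0.2% FBS, and 189 and 175 FPKM in the exosome libraries of 0.2% FBS. Both of these were above the other 4 libraries, so Slc38a2 ran opposite to Slc7a5 in this medium. The log2 change was 0.51 (SD 0.08, n = 2), which did not pass (SE 0.22, adjusted p = 0.149, limma), and in 2% HS it was −0.12. The ratio of Slc7a5 to Slc38a2 was 0.955 in 0.2% FBS and 0.337 and 0.319 with exosomes in that medium, against 0.713 in 2% HS and 1.63 in 2% HS + exosome.

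**Figure D2:**
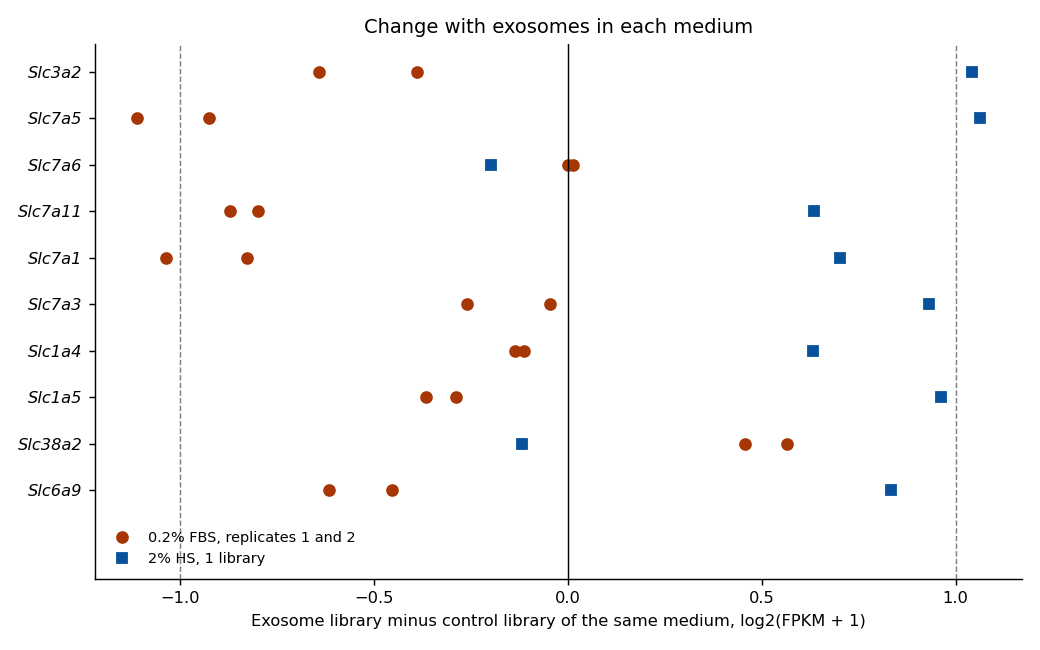
Difference of log2(FPKM + 1) between exosome and control libraries of the same medium (horizontal axis) for each transporter, with 1 circle per replicate in 0.2% FBS and 1 square for the library of 2% HS; dashed lines mark −1 and 1. The squares of 8 genes lie between 0.63 and 1.06 with their circles below 0, and Slc7a6 and Slc38a2 have squares below 0.

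By the fold limit of the study, a log2 change beyond 1 or −1, Slc7a5 was the 1 member of 10 called lower with exosomes in 0.2% FBS, and 0 were called higher. Among all genes 2.25% were called lower and 1.8% higher. With a pseudocount of 0.1 FPKM, or with values below 1 FPKM raised to 1, the count was 3, as Slc7a1 (−0.93 on the main scale) and Slc7a11 (−0.83) then passed too. The call on Slc7a5 needs replicate 2, since with replicate 1 alone 0 members passed, and with replicate 2 alone Slc7a5 and Slc7a1 did (2). In 2% HS, Slc3a2 and Slc7a5 were called higher (2 of 10, beside 0.354% of all genes) and 0 were called lower (0.298% of all genes), with 1 library on each side and so no replicate check. With a pseudocount of 0.1 FPKM the count was 4, as Slc1a5 and Slc7a3 passed too, and with values raised to 1 FPKM or with 75th percentile scaling it was 3, with Slc1a5.

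The limma fit with 1 mean per condition called 3 of the 9 transporters tested, Slc7a5, Slc7a1 and Slc7a11, as lower in 0.2% FBS, where 4.33% of all genes were called lower, and 0 as higher, where 8.2% of all genes were. Slc7a11 was below 1 FPKM in both exosome libraries of 0.2% FBS (0.869 and 0.779 FPKM). It passed the filter on low values only through the other libraries, so no conclusion is drawn from its call. An unadjusted p under 0.05 was found for 6 of the 9, 5 of them lower, and for 31.5% of all genes. With 75th percentile scaling Slc6a9 passed too (4 of 9, adjusted p = 0.0364 in limma), and 730 of the 10726 genes were then called lower. The control of 0.2% FBS is a single library that the fit takes to vary like replicates 1 and 2. Without the filter on low values, the fit called 0 of 16443 genes, with an adjusted p of 0.244 for Slc7a5, Slc7a1 and Slc7a11. Over the 5 settings tried, the adjusted p ran from 0.014 to 0.244 for Slc7a5, from 0.0123 to 0.244 for Slc7a1 and from 0.0229 to 0.244 for Slc7a11.

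The difference between the media was tested in the same limma fit, as the log2 change with exosomes in 0.2% FBS minus that in 2% HS. It was −2.08 for Slc7a5 (SE 0.30, adjusted p = 0.0266), −1.63 for Slc7a1 (SE 0.26, adjusted p = 0.0296) and −1.37 for Slc6a9 (SE 0.25, adjusted p = 0.0457). These 3 of 9 passed, where 0.867% of all genes were called in this direction, and 7 of the 9 had an unadjusted p under 0.05, as did 19.5% of all genes. Slc1a5 (−1.29, adjusted p = 0.053), Slc7a11 (−1.47, adjusted p = 0.055) and Slc3a2 (−1.56, adjusted p = 0.0596) missed the threshold of 0.05, and Slc1a4 (−0.76, adjusted p = 0.149), Slc38a2 (0.63, adjusted p = 0.337) and Slc7a6 (0.20, adjusted p = 0.683) lay further from it. With 75th percentile scaling 6 of the 9 passed (154 of all genes in this direction), with a pseudocount of 0.1 FPKM 4 did (111 of all genes), without the mean-variance trend 1 did (Slc7a5, adjusted p = 0.0425, and 40 of all genes), and without the filter on low values 0 did. When limma was instead given a single exosome effect for the 5 libraries under differentiation, with a term for medium, it called 0 of the 9 transporters and 0% of all genes (708 genes, and 0 of the 9, had an unadjusted p under 0.05).

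**Figure D3:**
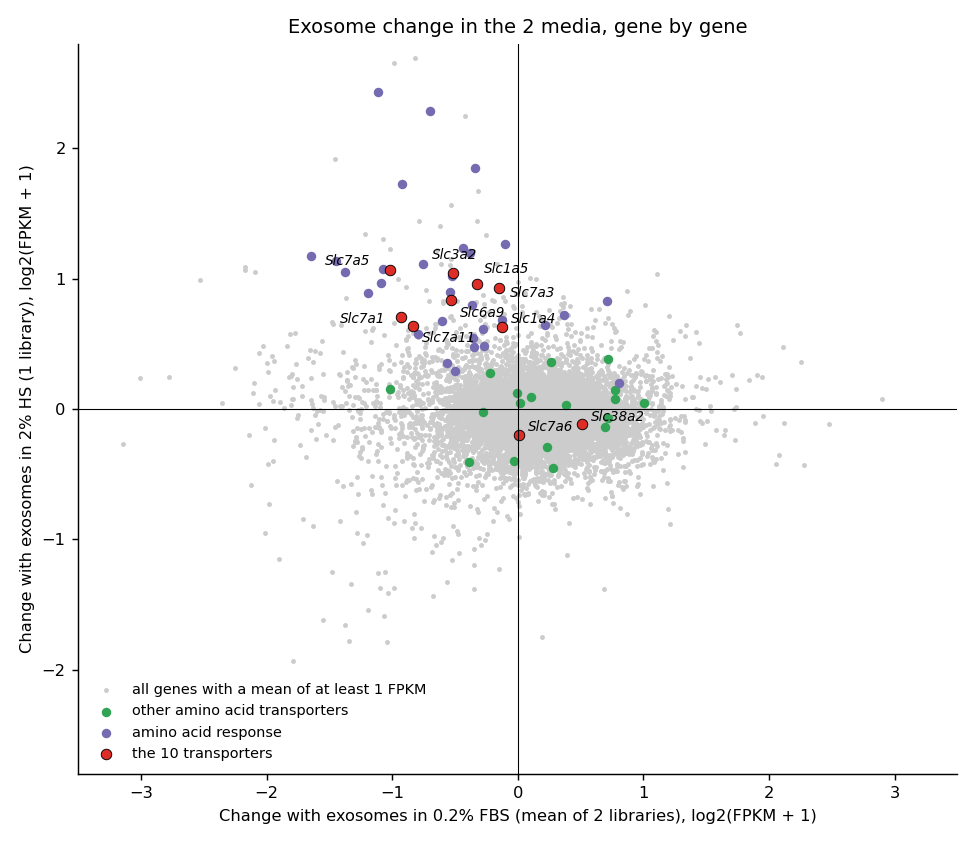
Change with exosomes in 0.2% FBS (horizontal axis, mean of 2 libraries) against that in 2% HS (vertical axis, 1 library), both as differences of log2(FPKM + 1), 1 point per gene. The 10 transporters are red, other amino acid transporters green and amino acid response genes purple; 8 of the red points lie at the upper left, below 0 on the horizontal and above 0 on the vertical axis, with Slc7a5 at −1.02 and 1.06, and all purple points lie above 0 on the vertical axis.

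Without exosomes, most of these transcripts were higher after serum reduction than in growing cells. Of the 10, 8 had higher levels in both differentiation media than in 10% FBS, all except Slc38a2 and Slc7a3, and 31.4% of all genes were. The median log2 difference of the 10 was 0.46 for 0.2% FBS minus 10% FBS and 0.41 for 2% HS minus 10% FBS, beside −0.09 and −0.08 over all genes. The largest in 0.2% FBS was 0.84 for Slc7a5 and the largest in 2% HS 0.79 for Slc3a2, so 0 of the 10 passed the limit of 1 in either medium, which 1.79% of all genes did in each. Between the media without exosomes the members differed by −0.32 for Slc38a2 at one end and 0.31 for Slc7a11 at the other on the log2 scale (0.2% FBS minus 2% HS). All of these are differences between single libraries, and the comparisons of 0.2% FBS with 10% FBS and with its exosome libraries share the 0.2% FBS library.

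With exosomes in 0.2% FBS, the log2 difference from 10% FBS, on the mean of replicates 1 and 2, ran from −0.34 for Slc7a11 to 0.30 for Slc38a2, with a median of 0.07. The library of 2% HS + exosome stood at 3.61 times growing cells for Slc3a2, 3.52 times for Slc7a5, 3.13 times for Slc6a9, 3.00 times for Slc1a5, 2.54 times for Slc7a1, 2.35 times for Slc7a11, 2.08 times for Slc1a4 and 4.43 times for Slc7a3, as ratios of FPKM, and at 0.944 for Slc7a6 and 0.992 for Slc38a2. Comparing both exosome conditions directly, 2% HS + exosome was higher than each of replicates 1 and 2 for the same 8 genes, as it was for 27% of all genes, by 3.74 and 4.26 times for Slc7a5 and by 1.85 and 1.89 times for Slc1a4.

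Of 47 further carriers listed, 18 had a mean of at least 1 FPKM, and 2 of these were lower in each exosome library of 0.2% FBS and higher in 2% HS with exosomes. Their median log2 change was 0.25 in 0.2% FBS and 0.04 in 2% HS. The share over all genes for that combination was 12.1%. In limma within 0.2% FBS, 5 rose and 1 fell, where 879 of all 10726 genes rose and 464 fell. With 75th percentile scaling, under which the list was not run, 474 of all genes were called higher and 730 lower. Those that rose were Ctns, the cystine exporter of lysosomes (8.91 FPKM in 0.2% FBS, 18.5 and 19.3 FPKM with exosomes), Slc36a1, a proton-coupled carrier (3.62, then 7.29 and 6.57 FPKM), Slc38a7 (7.25, then 13.5 and 11.6 FPKM), Slc43a1, a carrier of large neutral amino acids (1.67, then 3.48 and 3.64 FPKM), and Slc25a22, the mitochondrial glutamate carrier (3.83, then 7.29 and 6.62 FPKM). Slc6a19, a neutral amino acid carrier best known from gut and kidney, fell from 1.56 FPKM to 0.266 and 0.264 FPKM. It passed the filter on low values only through 0.2% FBS, 2% HS (2.00 FPKM) and 2% HS + exosome (2.33 FPKM), so no conclusion is drawn from its call. Of the 18, 0 passed the limma test of the difference between media, which 125 of all 10726 genes passed.

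A list of the amino acid response, with ATF4, its partners and targets but no transporters, was read beside the transporters. Like the members and the other lists, it was chosen with earlier results of these data known. The shares of all genes beside its counts are therefore no independent test. Of the 30 genes of this list whose mean reached 1 FPKM, 25 were lower in each exosome library of 0.2% FBS and higher with exosomes in 2% HS. All 30 were higher in 2% HS, and the shares of all genes were 12.1% and 41.3%. The median log2 changes were −0.52 in 0.2% FBS and 0.89 in 2% HS. In limma 9 fell and 1, Ddit4, rose within 0.2% FBS, where 4.33% of all genes fell and 8.2% rose. For the difference between media 16 passed as lower, beside 0.867% of all genes. Of the genes past −1 in each exosome library of 0.2% FBS, the 4 with the largest mean change were Fgf21, a secreted hormone of nutrient stress (127 FPKM in 0.2% FBS, 45.0 and 35.5 FPKM with exosomes), Asns, asparagine synthetase (126, then 47.6 and 43.4 FPKM), Mthfd2, a mitochondrial folate enzyme (64.3, then 24.7 and 23.6 FPKM), and Trib3, a pseudokinase that dampens ATF4 (7.32, then 2.71 and 2.97 FPKM). In 2% HS with exosomes Trib3 stood at 34.9 FPKM against 5.65 FPKM without. Atf4 itself was at 358 FPKM in 0.2% FBS and 282 and 277 FPKM with exosomes, and at 334 and 488 FPKM in 2% HS without and with them. Its change within 0.2% FBS had an adjusted p of 0.404 in limma.

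A list of NRF2 and glutathione genes was run because Slc7a11 is also a known target of NRF2. Of its 16 genes, 2 had the pattern of the 8 transporters, a share near the 12.1% of all genes, and the median log2 changes were −0.04 in 0.2% FBS and −0.09 in 2% HS. In limma within 0.2% FBS, 1 of the 16 fell, Osgin1 (18.3 FPKM in 0.2% FBS, 10.7 and 9.43 FPKM with exosomes). Another 1 rose, Nfe2l2, the gene of NRF2 (50.1, then 80.0 and 87.7 FPKM). Both counts were near the shares of all genes, 4.33% lower and 8.2% higher. The part of NRF2 in the level of Slc7a11 was not tested.

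The genes with the nearest profiles were sought for the 3 members with the widest range of log2(FPKM + 1). As a ratio of FPKM, the range of the low gene Slc7a3 was wider, its highest value being 6.89 times its lowest. Nearness was the Euclidean distance between centred log2(FPKM + 1) profiles over the 6 libraries, among 5872 genes whose mean reached 10 FPKM. Nearest to Slc7a5 were Phgdh (distance 0.183), Psat1 (0.255) and Psph (0.307), the enzymes of serine synthesis from glycolysis. Nearest to Slc3a2 were another member, Slc6a9 (0.239), then Cyb5r1 (0.321), a cytochrome b5 reductase, and Shmt2 (0.384), the mitochondrial enzyme that converts serine to glycine. Nearest to Slc7a1 were Nars (0.166) and Lars (0.268), the asparaginyl- and leucyl-tRNA synthetases, with Ptgs2 (0.265), a prostaglandin synthase, between them. Phgdh, for example, was at 67.3 FPKM in 10% FBS, 130 FPKM in 2% HS, 275 FPKM in 2% HS + exosome, 136 FPKM in 0.2% FBS, and 66.9 and 61.3 FPKM with exosomes in 0.2% FBS. All profiles share the same 6 libraries, and each of those named was highest in 2% HS + exosome.

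**Figure D4:**
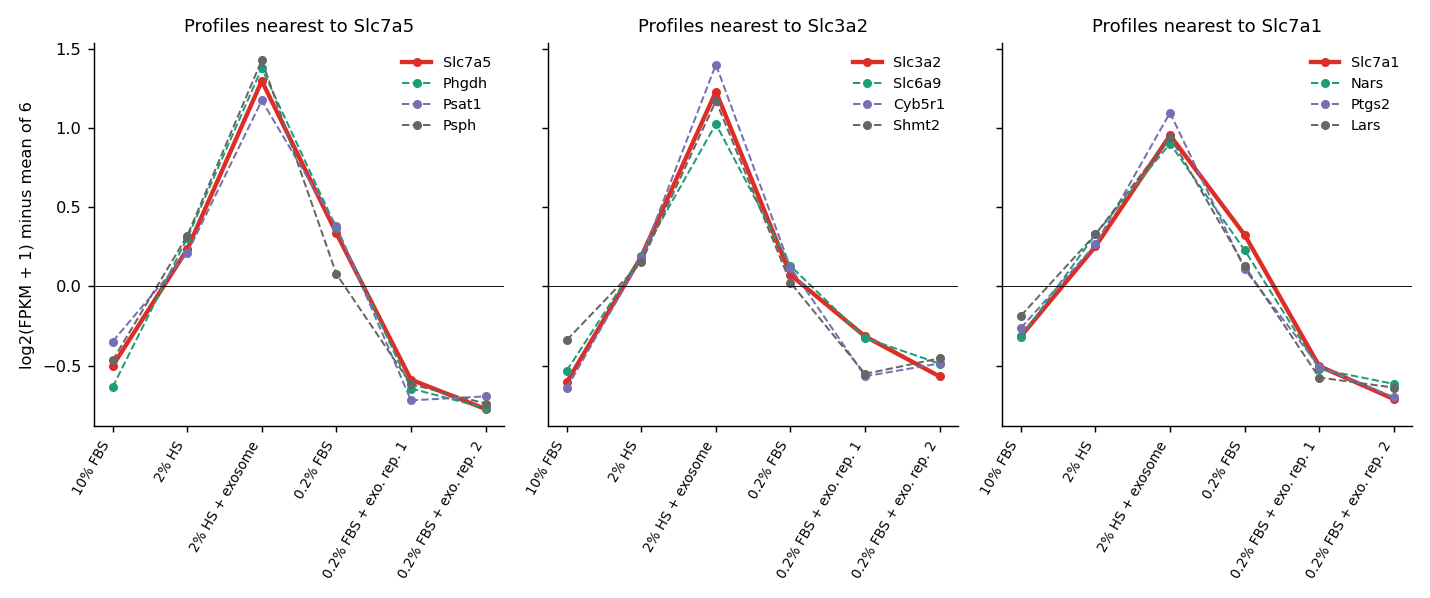
Centred log2(FPKM + 1) (vertical axis, each gene minus its mean of the 6 libraries) of Slc7a5, Slc3a2 and Slc7a1 in solid red with their 3 nearest genes dashed; lines only join the points of 1 gene. Every profile peaks in 2% HS + exosome, and those of the 0.2% FBS + exosome libraries lie below 0.

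All 16 myotube markers, among them Myog, Myh3 and Ckm, were lower in each exosome library of 0.2% FBS, with a median log2 change of −1.52, and their summed FPKM was 21715 in the control and 8561 and 6180 with exosomes, against 8916 in growing cells. In 2% HS, 9 were higher and 7 lower with exosomes (median 0.05, summed FPKM 19728 without and 19354.5 with exosomes), while 8 of the 10 transporters were higher. Of 8 myoblast markers, 3 were lower in each exosome library of 0.2% FBS (median 0.45), where 27.5% of all genes were. In 2% HS, 7 of the 8 were lower with exosomes (median −0.18), where only 41.3% of all genes were higher. Opposite to the median in 0.2% FBS, the summed FPKM of the 8 was 1547 in 0.2% FBS and 1021 and 1042 with exosomes, against 1080 in growing cells. In 2% HS it was 1598 without and 1271 with exosomes. All 7 markers of dividing cells were lower with exosomes in 2% HS (median −0.45), beside that same share of all genes. In 0.2% FBS, 4 of 7 were lower in each exosome library (median −0.09), where 27.5% of all genes were. The part of the differentiation state in the transporter levels was not tested. In bulk RNA, fewer cells of a type and less RNA per cell cannot be told apart. Summed endothelial markers (4 genes) reached at most 0.284 FPKM. The platelet and leukocyte list (6 genes) summed to between 5.33 and 7.997 FPKM in 4 libraries and to 12.5 (replicate 1) and 23.8 FPKM (replicate 2) with exosomes in 0.2% FBS. The median log2 change of these 6 genes in 0.2% FBS was 0.09, and 2 of them were below 1 FPKM in every library. The part of this list was not tested.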

How the data were processed

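The study sequenced poly(A) RNA of C2C12 cells as 75 bp single-end reads from stranded libraries. The authors trimmed the reads with cutadapt 1.9.1, mapped them to mm10 with TopHat2 2.1.0 (versions from the submitters' processing notes), computed FPKM with Cufflinks and deposited 1 table of FPKM values with a column per library. FPKM divides by transcript length and depth. The strand setting of the computation is not given in the sources used here. No counts were used, so the depth was estimated from low values of genes with 1 annotated transcript, assuming fragments of 200 bases (between 73.6% and 76.1% of values lay within 0.1 of a whole read, where 20% would if spread evenly), and no counting interval was computed.

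Values were compared as log2(FPKM + 1). The fold limit of the study, above 1 or below −1, was applied to the mean of replicates 1 and 2 minus the control in 0.2% FBS, and to single libraries elsewhere. limma 3.58.1 (R 4.3.3) with a mean-variance trend and Benjamini-Hochberg adjustment was fitted over the 10726 genes whose mean reached 1 FPKM, with 1 mean per condition (1 residual degree of freedom) and with a medium term and a common exosome effect (2). Entries whose name occurs more than once were left out (10). The fits were tested on simulated data, the difference between media only with no changed gene. All simulated libraries varied like replicates 1 and 2, so the simulation cannot show whether the single libraries do. Named genes are the 10 transporters and the 3 nearest profiles of each of the 3 members ranging widest on log2(FPKM + 1). Of each list, those past the limit in both exosome libraries of 0.2% FBS are named, up to 4. Other list genes named (those passing limma, Atf4, Ddit4 and markers) were chosen after their values were seen. Promoters are RefSeq windows of GRCm38.p6, which is mm10. The members and lists were chosen with earlier results of these data known. Alternatives were a pseudocount of 0.1 FPKM, values below 1 FPKM raised to 1, scaling to the same 75th percentile, no filter on low values, no trend and leaving out replicate 1 or 2.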

Additional observations from a re-analysis of the deposited data

Results flagged for a closer look

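The change with exosomes differed between 0.2% FBS and 2% HS for 3 transporters by the limma contrast: −2.08 on the log2 scale for Slc7a5, −1.63 for Slc7a1 and −1.37 for Slc6a9, each lower with exosomes in both libraries of 0.2% FBS and higher in the 1 library of 2% HS. Over the 5 settings tried the adjusted p ran from 0.0188 to 0.359 for Slc7a5, from 0.0224 to 0.359 for Slc7a1 and from 0.0325 to 0.359 for Slc6a9. For Slc7a3, which the filter leaves out, the libraries moved in the same opposite ways, a difference of −1.08, which was not tested with the filter on low values and had an adjusted p of 0.359 in limma without it. Medium and single cultures cannot be told apart, since 3 of the 4 conditions compared have 1 library each.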

How the results depend on the processing

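Of 320 values recomputed under the alternatives, counts over all genes among them, 0 called values changed sign. Few of them were called in the main run. Leaving out the filter or the trend altered no log2 change, so those values could not change sign. Values near 0 that were not called did change sign, such as Slc7a6 in 0.2% FBS, from 0.01 to −0.14 with 75th percentile scaling, and the common effect on Slc7a5, from −0.13 to 0.07 without replicate 2. In 0.2% FBS the number of transporters below −1, main value 1, was 3 with a pseudocount of 0.1 FPKM, 3 with values below 1 FPKM raised to 1 and 2 with 75th percentile scaling, and between 0 and 2 when replicate 1 or 2 was left out (0 without replicate 2). The number above 1 in 2% HS, main value 2, was 4 with a pseudocount of 0.1 FPKM, and 3 with values raised to 1 or with scaling. The median of the transporters for 0.2% FBS minus 10% FBS, 0.46, became 0.58 with a pseudocount of 0.1 FPKM and 0.59 with values raised to 1, and that for exosomes in 0.2% FBS, −0.42, became −0.57 with scaling. limma within 0.2% FBS called 3 transporters (Slc7a11, below 1 FPKM with exosomes, among them), 4 with scaling and 0 without the filter on low values. The difference between media called 3, and 6 with scaling, 4 with a pseudocount of 0.1 FPKM, 1 without the trend and 0 without the filter. The cause was not tested.

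Over all genes, limma within 0.2% FBS called 1343 (464 lower, 879 higher), 1204 with scaling (730 lower, 474 higher) and 0 without the filter (3120 with an unadjusted p under 0.05), and for the difference between media 125, then 178 with scaling, 45 without the trend and 0 without the filter (2275 unadjusted). No paired analysis was possible because only 0.2% FBS + exosome has more than 1 library, so the groups compared share fewer than 2 replicate numbers. The lowest estimated number of reads behind a transporter was 19.5, for Slc7a3 in replicate 2.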
